A study of Solanum lycopersicum with 39 samples.

Results

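Gibberellin (GA) is a growth hormone, and the expression of 10 tomato genes that set its level or its signalling was followed in leaves under drought and heat. The genes were chosen by name and matched by gene ID, ignoring the version suffix. They were 3 GA 20-oxidases (GA20ox1 Solyc03g006880, GA20ox2 Solyc06g035530 and GA20ox3 Solyc11g072310), 2 GA 3-oxidases (GA3ox1 Solyc06g066820 and GA3ox2 Solyc03g119910), 4 GA 2-oxidases (GA2ox2 Solyc07g056670, GA2ox4 Solyc07g061720, GA2ox5 Solyc07g061730 and GA2ox7 Solyc02g080120) and 1 DELLA gene, PROCERA (Solyc11g011260). All 10 were found among the 34075 genes listed in each of the 2 expression tables. The RefSeq gene table (assembly SLM_r2.1) had entries matched by symbol to 9 of the 10, each on the chromosome its ID gives, and no entry under the name GA2ox7. It did not list the gene IDs, so the match rests on symbol and chromosome alone. GA20ox2, GA20ox3 and GA3ox2 were matched to the symbols 20ox-2, 20ox-3 and 3OH-2. The entry 3OH-2 carries the synonym SlGA3ox1, so the naming of GA3ox2 is not settled there.

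The 20-oxidases and 3-oxidases carry out the late steps that make active GA, and the 2-oxidases inactivate active GA or its precursors. DELLA proteins hold back GA-responsive growth and are broken down when the hormone binds its receptor, and PROCERA is the tomato gene of this kind. In many plants a fall in GA signalling raises transcripts of 20-oxidases and 3-oxidases and lowers those of 2-oxidases, a feedback that keeps the hormone level steady.

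The plants were tomato cultivar M82, labelled as 38 days old, kept at 25 °C and 70% humidity with 16 h of light and 8 h of dark, and leaves were sampled. The drought series had 7 groups: 0 days, when soil water had dropped to about 80% of capacity, then 1, 2, 3, 4 and 5 days after that point, and 1 day after re-watering. The heat series had 6 groups: 0, 2, 4, 12 and 24 h at 42 °C and 90% humidity, and recovery for 1 day under the normal growth conditions after the 24 h treatment. Each group had 3 libraries, 21 for drought and 18 for heat. No watered plants of the later days and no unheated plants of the later hours were among the samples, so treatment cannot be told apart from plant age or, at 2, 4 and 12 h of heat, from time of day. The labels do not say whether the 3 libraries of a group came from separate plants. The study's methods speak of 3 biological replicates for the heat series and do not describe the drought series. The p-values are therefore read only as a measure of the spread between these libraries.

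The authors deposited FPKM, a read-pair count corrected for how long the transcript is and how deeply the library was sequenced. The summed FPKM per library was 559548 to 895476 in the heat series and 694973 to 815091 in the drought series. Read totals were not given, but the spacing of the low values gave relative depths of 0.939 to 1.36 in the heat series and 0.742 to 1.46 in the drought series, except for replicate 2 of 3 days of drought at 0.134. A single fragment therefore weighed several times more in that library, and its values at 0 carry little weight. In the heat series the lowest correlation within a group was 0.889, between replicates 2 and 3 at 12 h, and several genes below had their extreme value in replicate 3 of 12 h or of 24 h. The leaf identity was checked with 22 light-harvesting antenna genes, all found in both tables and at 0 in some library only at 12 h (1 gene) and 24 h (1 gene) of heat and 3 days of drought (2 genes). Their summed FPKM had medians of 36063 at 0 days, 1187 at 5 days of drought and 33279 after re-watering, and of 44599 at 0 h, 4178 at 24 h of heat and 20542 after recovery, so leaf photosynthesis transcripts moved with the treatment. In such whole-leaf samples fewer cells of a type and less RNA per cell cannot be told apart, and the part of either in the values below was not tested.

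A gene was tested where at least 3 libraries of a table reached 1 FPKM. This kept 7 of the 10 genes in the drought table (19963 genes tested in all) and 6 in the heat table (18923 genes), with 5 in both. GA20ox2 and GA3ox1 were tested in neither. GA2ox4 passed only through 0 days in the drought series and through 2 h in the heat series, GA3ox2 only through re-watering and GA2ox5 only through 24 h of heat. In comparisons with the group that let it in, such a gene was bound or likely to differ, so there its values are a description with no test, and it is set aside from the counts and medians of the report. GA20ox3 passed in drought only through libraries of 1 to 5 days. Its comparisons with 0 days and with re-watering are therefore a description too, and it is set aside from their counts and medians as well. Tests were made with limma on log2(FPKM + 1), and log2FC below is on that scale, on which changes of weakly expressed genes come out too small. Differential expression was called where the log2FC reached 1 in size and the adjusted p did not exceed 0.05. A gene with a mean log2(FPKM + 1) below 1 in the starting group could thus not be called lower, even with a fall to 0 FPKM. Beside this, an exact two-sided permutation test of 3 libraries against 3 cannot give a p below 0.1, and it gave 0.1 wherever the libraries of 2 groups did not overlap.

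During drought, the transcripts of GA20ox1, GA2ox2, GA2ox7 and PROCERA fell, while those of GA20ox3 rose. After 1 day of drought 3 of the 5 genes left without GA2ox4 and GA20ox3 were lower than at 0 days and none was higher. Among all genes 8.27% were lower and 6.79% higher. The 5 genes include GA3ox2, which could not be called lower on this scale. At 2 days 4 were lower (12.9% of all genes) and none was higher (11%). At 3 days 4 were lower (14.8%) and none higher (12.9%). At 4 days 4 were lower (15.2%) and none higher (14.6%), and at 5 days 4 were lower (17.7%) and none higher (13.5%). The median log2FC of the 5 genes was -1.20, -1.54, -1.78, -1.52 and -1.62 over the 5 days. The median of all genes was 0.07, 0.13, 0.17, 0.23 and 0.16. With median-ratio scaling of the libraries all of these gene calls held, but the calls over all genes shifted towards lower ones, as at 4 days, with 1881 higher and 3793 lower genes, against 2911 higher and 3038 lower without scaling.

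**Figure D1:**
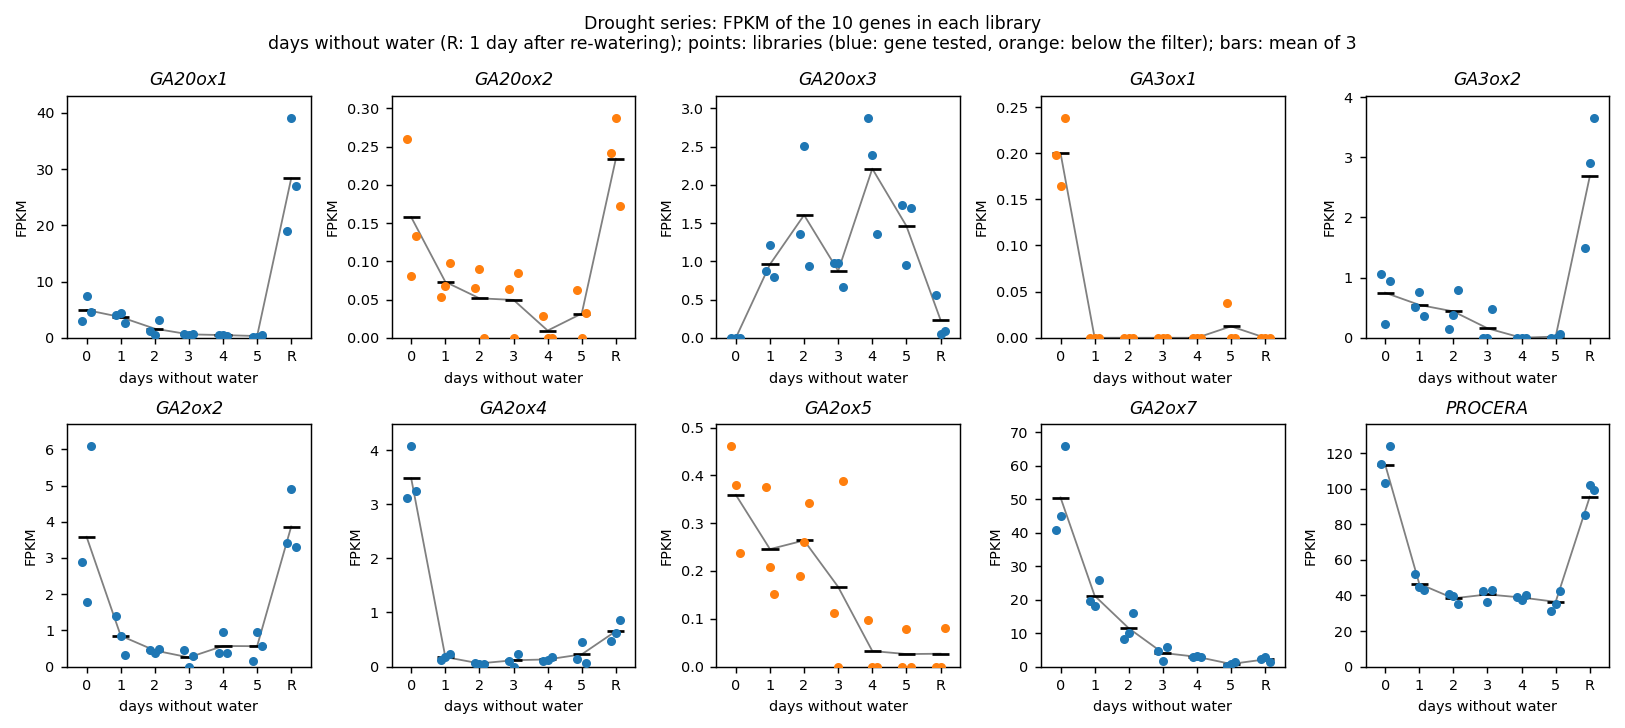
FPKM (vertical axis, each gene on its own scale) of the 10 genes in each of the 21 drought libraries, by days of drought (R: 1 day after re-watering). Points are libraries, bars and lines are means of 3; blue marks genes that were tested and orange genes below the filter. GA2ox7 ends at or below 2.74 FPKM in all libraries of 5 days and re-watering, while GA20ox1 reaches 19.0 to 39.1 FPKM after re-watering.

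GA20ox1, the 20-oxidase with the highest FPKM at 0 days, had 2.90, 7.36 and 4.54 FPKM in the libraries of 0 days. It had 4.03, 4.42 and 2.59 FPKM at 1 day, 1.17, 0.543 and 3.13 FPKM at 2 days, and 0.650, 0.501 and 0.680 FPKM at 3 days. It went on to 0.572, 0.521 and 0.334 FPKM at 4 days and to 0.222, 0.209 and 0.499 FPKM at 5 days. From 3 days on every library lay below every library of 0 days. The log2FC was -0.30 at 1 day (limma, adjusted p = 0.482), -1.24 at 2 days (adjusted p = 0.00308), -1.81 at 3 days (adjusted p = 9.99e-05) and -2.12 ± 0.320 at 5 days (SE; adjusted p = 1.74e-05). The call at 2 days rested on single libraries, since the log2FC was -0.95 without replicate 2 of 0 days and -0.92 without replicate 2 of 2 days, both short of the minimum fold change.

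GA20ox3, another 20-oxidase, ran in the opposite direction. It was listed at 0 FPKM in all 3 libraries of 0 days, so no fold is given against them. It had 0.872, 1.22 and 0.793 FPKM at 1 day, 1.36, 2.51 and 0.944 FPKM at 2 days, and 0.978, 0.979 and 0.668 FPKM at 3 days. At 4 days it had 2.88, 2.39 and 1.36 FPKM, and at 5 days 1.74, 0.951 and 1.70 FPKM. Every drought library was above every library of 0 days, and the 8 libraries with 1 FPKM or more, through which the gene passed the filter, all came from 1 to 5 days. Its comparisons with 0 days are therefore a description with no test. On the log2(FPKM + 1) scale the change reached the minimum fold change at 2, 4 and 5 days and was short of it at 1 and 3 days. GA20ox2 stayed between 0 and 0.288 FPKM in all 21 drought libraries and was not tested.

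Of the 3-oxidases, which make the final active hormone, GA3ox2 was low throughout the drought. It had 1.07, 0.228 and 0.951 FPKM at 0 days, 0.508, 0.763 and 0.368 FPKM at 1 day, and 0.153, 0.371 and 0.790 FPKM at 2 days. In the 9 libraries of 3 to 5 days it was at 0 in all but 2, which had 0.472 FPKM at 3 days and 0.0612 FPKM at 5 days. The log2FC was -0.77 at 4 days (limma, adjusted p = 0.00966) and -0.74 at 5 days (adjusted p = 0.0122), below the minimum fold change. A call as lower was not possible on this scale. All 3 libraries of 4 days were at 0, so -0.77 was the largest fall from 0 days that could be seen. With a pseudocount of 0.1 in place of 1 the changes at 4 and 5 days were called, at -2.88 and -2.65. GA3ox1 had 0.198, 0.164 and 0.239 FPKM at 0 days and was at 0 in 17 of the 21 drought libraries. The only library of drought or re-watering above 0 had 0.0372 FPKM, and the gene was not tested.

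GA2ox7 was the 2-oxidase with the highest FPKM at 0 days, and from 3 days on its log2FC was the lowest of the 7 tested genes. It had 40.8, 44.9 and 65.7 FPKM at 0 days, 19.7, 18.1 and 25.7 FPKM at 1 day, and 8.30, 9.95 and 16.0 FPKM at 2 days. It had 4.76, 1.66 and 5.76 FPKM at 3 days, 2.72, 3.02 and 2.99 FPKM at 4 days, and 0.103, 0.875 and 1.32 FPKM at 5 days. The groups of 0, 1, 2 and 3 days stood in this order with no overlap between neighbours, whereas 3 and 4 days overlapped. The log2FC was -1.20 at 1 day (limma, adjusted p = 0.00745), -2.07 at 2 days (adjusted p = 4.82e-05), -3.42 at 3 days (adjusted p = 1.64e-07), -3.69 at 4 days (adjusted p = 6.22e-08) and -4.90 ± 0.333 at 5 days (SE; adjusted p = 1.94e-09). At 5 days 99 of the 19963 genes had a lower log2FC. The call at 1 day was lost with a pseudocount of 0.1 (adjusted p = 0.0816) and without replicate 3 of 0 days (log2FC -0.998, just short of the minimum). Without the shallow replicate 2 of 3 days, the log2FC at 3 days was -3.01.

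GA2ox4, a 2-oxidase gene that lies next to GA2ox5 with no gene between them, was much lower after a day. It had 3.12, 4.07 and 3.24 FPKM at 0 days, but 0.123, 0.179 and 0.225 FPKM at 1 day and 0.0746, 0.0511 and 0.0479 FPKM at 2 days. In the 9 libraries of 3 to 5 days it lay between 0 and 0.463 FPKM. All drought libraries were below all libraries of 0 days, and the log2FC was -1.92 ± 0.144 (SE) at 1 day, -2.08 at 2 days and -1.88 at 5 days, given as a description because only the libraries of 0 days reached 1 FPKM. The size depended on the pseudocount, and with 0.1 the value at 1 day was -3.71. GA2ox5 had 0.461, 0.380 and 0.237 FPKM at 0 days, lay between 0 and 0.388 FPKM in all other drought libraries, and was not tested. How reads of similar neighbouring genes were divided was not checked here.

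GA2ox2, another 2-oxidase, had 2.89, 1.77 and 6.08 FPKM at 0 days, then 1.40, 0.846 and 0.310 FPKM at 1 day and 0.462, 0.373 and 0.495 FPKM at 2 days. In the 9 libraries of 3 to 5 days it lay between 0 and 0.961 FPKM. All drought libraries were below those of 0 days. The log2FC was -1.24 at 1 day (limma, adjusted p = 0.00285), -1.78 at 3 days (adjusted p = 6.23e-05) and -1.48 at 5 days (adjusted p = 0.000327). Without replicate 3 of 0 days, the highest library, the value at 1 day was -0.87 and the call was lost.

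PROCERA, the DELLA gene, had the highest mean FPKM of the 10 genes in every group of both series except 24 h of heat. There the mean of GA2ox5 was higher through replicate 3, while PROCERA was higher in replicates 1 and 2. It had 114, 103 and 124 FPKM at 0 days and 51.9, 45.0 and 42.8 FPKM at 1 day. It then stayed at 40.6, 39.5 and 35.0 FPKM at 2 days, 42.6, 36.1 and 43.0 FPKM at 3 days, 38.9, 37.5 and 40.2 FPKM at 4 days, and 31.3, 35.3 and 42.6 FPKM at 5 days. All of these lay below 0 days, and the groups of 2 to 5 days overlapped with one another. The log2FC was -1.27 ± 0.119 at 1 day (SE; limma, adjusted p = 3.70e-07), -1.54 at 2 days (adjusted p = 1.66e-08) and -1.62 at 5 days (adjusted p = 4.63e-09). Most of its fall had thus come by 1 day, although each library of 1 day was still above those of 2 and 5 days. The libraries of GA2ox7 were still separating at 3 days.

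One day after re-watering the genes were at very different places. GA20ox1 and GA3ox2 were above their values at 0 days, GA2ox2 was back among them, and GA2ox4 and GA2ox7 were still lower. Without GA3ox2, GA2ox4 and GA20ox3, 1 gene was higher (5.25% of all genes) and 1 lower (6.41%) than at 0 days. The middle log2FC values of those left were 0.18 for GA2ox2 and -0.25 for PROCERA, where the median of all genes was 0.05. Against 5 days of drought, 3 of the 5 genes left without GA3ox2 and GA20ox3 were higher (17.4%) and none was lower (12.6%). Their median log2FC was 1.37, where that of all genes was -0.09. At 5 days all of them but PROCERA were too low to be called lower. These comparisons share the re-watered libraries.

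GA20ox1 had 19.0, 39.1 and 26.9 FPKM after re-watering, a mean of 28.3 ± 10.2, compared with 4.93 ± 2.26 FPKM at 0 days (SD, n = 3 each). The lowest re-watered library was above the highest of 0 days. The log2FC was 2.32 ± 0.320 against 0 days (SE; limma, adjusted p = 2.86e-05), a value that 121 genes exceeded. Against 5 days of drought it was 4.43 (adjusted p = 3.42e-09), 21.6-fold on the FPKM + 1 scale, and 139 genes had a higher value.

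GA3ox2 had 1.49, 2.90 and 3.66 FPKM after re-watering, all above the 1.07 FPKM of the highest library of 0 days. As a description, the log2FC was 1.06 ± 0.242 (SE) against 0 days and 1.80 against 5 days. GA20ox3 had 0.565, 0.0440 and 0.0939 FPKM, below each library of 5 days, with a log2FC of -1.003 against 5 days, as a description. That value sits at the minimum fold change, and it was -0.97 with median-ratio scaling.

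The 2-oxidases split after re-watering. GA2ox2 had 3.41, 4.89 and 3.30 FPKM, which overlapped with 0 days (log2FC 0.18, 95% interval -0.45 to 0.81; limma, adjusted p = 0.684) and lay above 5 days (log2FC 1.66, adjusted p = 0.000114). GA2ox7 had 2.36, 2.74 and 1.29 FPKM, all below the lowest library of 0 days, with a log2FC of -4.04 ± 0.333 (SE; adjusted p = 1.10e-07). Only 11 of the 19963 genes had a lower value in this comparison. Against 5 days GA2ox7 overlapped and had a log2FC of 0.86 (adjusted p = 0.0316), short of the minimum fold change.

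GA2ox4 had 0.478, 0.620 and 0.866 FPKM after re-watering, above each library of 5 days but below each of 0 days. The log2FC was -1.44 against 0 days, as a description, and 0.44 against 5 days (limma, adjusted p = 0.0133, short of the minimum fold change). PROCERA had 85.3, 102 and 99.4 FPKM, all below the lowest library of 0 days, 103 FPKM. Its log2FC was -0.25 against 0 days (95% interval -0.50 to 0.00; adjusted p = 0.118) and 1.37 against 5 days (adjusted p = 2.95e-08).

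**Figure D2:**
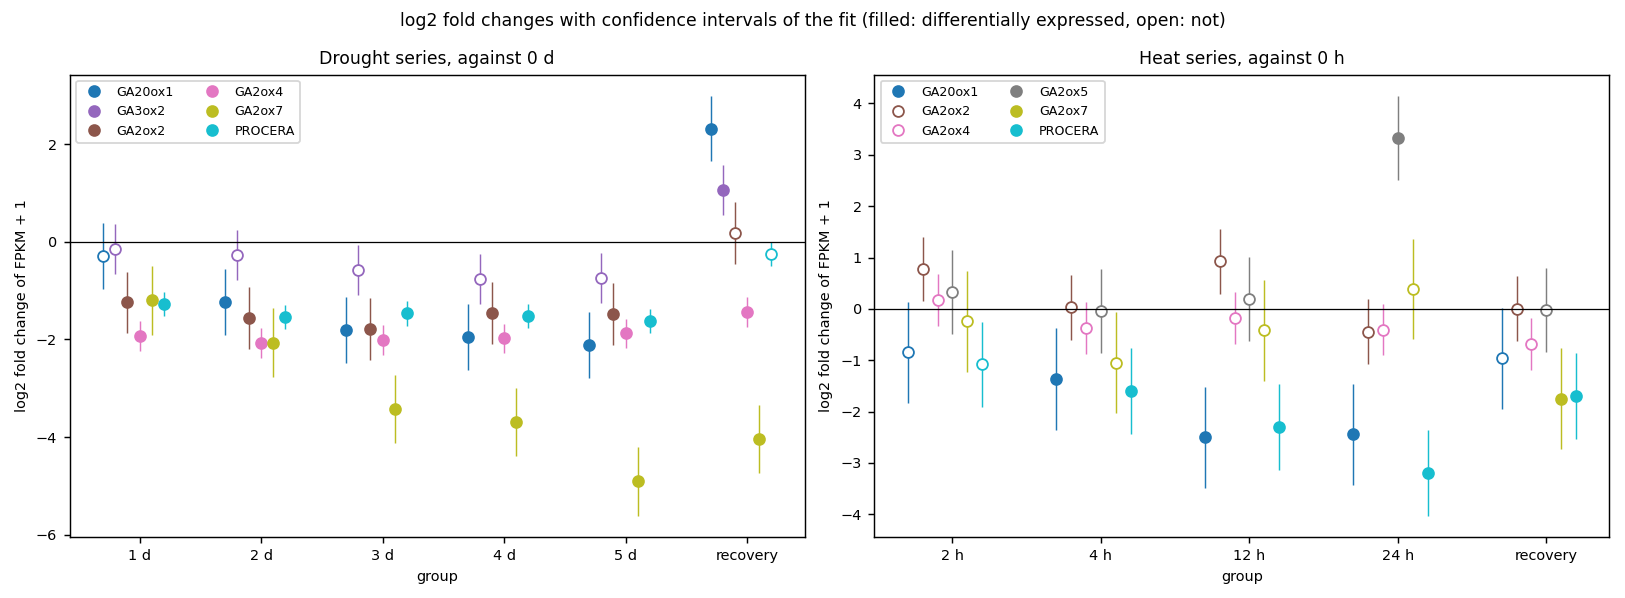
log2FC on the log2(FPKM + 1) scale (vertical axis) of the tested genes against 0 days of drought or 0 h of heat, by days or hours and recovery (R); error bars are 95% intervals from limma, and GA2ox4 in drought, GA3ox2 after re-watering, GA2ox4 at 2 h and GA2ox5 at 24 h of heat are shown as a description. GA20ox3 is left out of the drought panel because it was listed at 0 at 0 days. Filled points met both thresholds of a call and open points did not, and filling marks no test for the genes shown as a description. In drought the points lie below 0 through 5 days and then separate, with GA20ox1 at 2.32 and GA2ox7 at -4.04 after re-watering, and in heat GA2ox5 stands at 3.34 at 24 h only.

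In the heat series fewer of the genes were called, but PROCERA and GA20ox1 fell again, and GA2ox5, hardly detected otherwise, was high at 24 h. Standard errors of the log2FC were larger than in drought, 0.396 against 0.119 for PROCERA and 0.466 against 0.320 for GA20ox1. Calls were thus harder to reach in heat, and whether fewer genes changed was not tested. At 2 h none of the 5 genes left without GA2ox4 was called by limma, against 2.07% higher and 3.49% lower among all genes, while 2 had an unadjusted p under 0.05. At 4 h 2 of 6 were lower (13% of all genes) and none higher (2.47%), and at 12 h 2 were lower (15.7%) and none higher (8.42%). At 24 h 2 of the 5 genes left without GA2ox5 were lower (33.1%) and none higher (9.31%), and after recovery 2 of 6 were lower (23.3%) and none higher (1.23%). GA2ox2, GA2ox4 and GA2ox5 were so low at 0 h that none of them could be called lower against it on this scale. GA2ox5 could not be called higher outside 24 h either, where it stayed below 1 FPKM. The median log2FC of the genes counted was -0.24, -0.71, -0.30, -0.45 and -0.83 in these 5 comparisons with 0 h, and that of all genes was -0.21, -0.43, -0.17, -0.55 and -0.53. Median-ratio scaling brought the median of all genes close to 0, and it changed the calls over all genes at 24 h to 3335 higher and 3722 lower, against 1762 higher and 6264 lower without scaling. For recovery against 0 h it gave 1127 higher and 1455 lower genes, against 233 higher and 4416 lower without scaling.

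PROCERA had 91.1, 95.002 and 102 FPKM at 0 h, 45.5, 42.2 and 46.7 FPKM at 2 h, and 33.7, 25.5 and 34.5 FPKM at 4 h. At 12 h it had 24.6, 30.9 and 8.21 FPKM, and at 24 h 10.7, 16.3 and 4.93 FPKM. From 2 h on all libraries were below those of 0 h, and those of 4 h were below those of 2 h. At 2 h its log2FC was -1.08 and was not called (limma, adjusted p = 0.110). It was -1.60 (0.00948) at 4 h, -2.31 (0.000328) at 12 h and -3.19 ± 0.396 (SE; 7.84e-06) at 24 h, each with its adjusted p from limma in parentheses. At 2 h the gene was called when the fit held only the groups compared (adjusted p = 0.00179). Without replicate 3 of 12 h and of 24 h, where PROCERA was lowest, the log2FC was -1.76 at 12 h and -2.77 at 24 h. The fall was the same in direction with median-ratio scaling, at -2.56 at 24 h. After recovery PROCERA had 35.8, 29.3 and 22.6 FPKM, above 24 h (log2FC 1.48, adjusted p = 0.00585) but below 0 h (log2FC -1.70, adjusted p = 0.00374). With median-ratio scaling the log2FC of recovery against 0 h was -1.05 (limma, adjusted p = 0.00762).

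**Figure D3:**
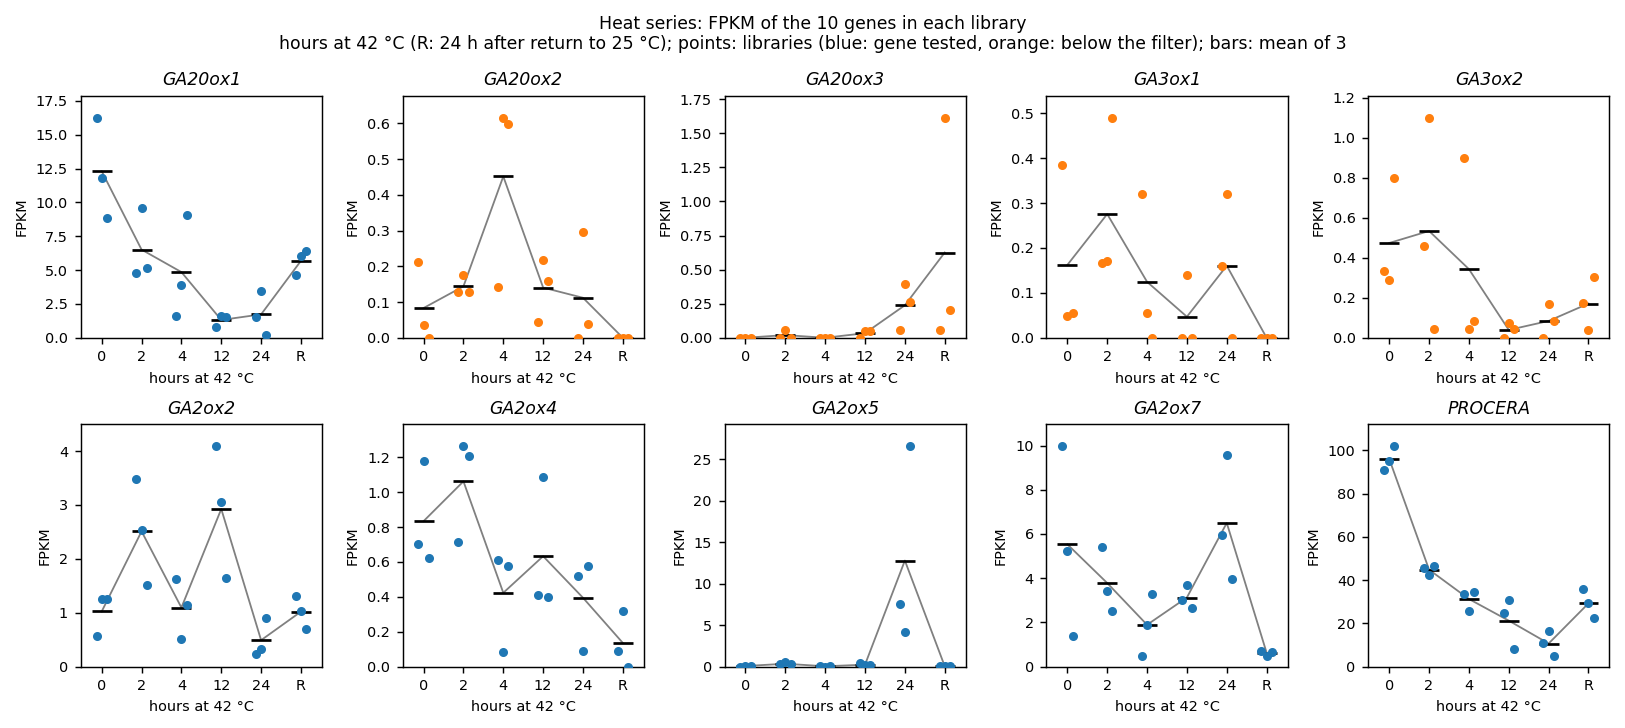
FPKM (vertical axis, each gene on its own scale) of the 10 genes in each of the 18 heat libraries, by hours at 42 °C (R: 1 day after return to 25 °C). Points are libraries, bars and lines are means of 3; blue marks genes that were tested and orange genes below the filter. PROCERA reaches its lowest values at 24 h, 4.93 to 16.3 FPKM, where GA2ox5 has 4.19 to 26.5 FPKM.

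GA20ox1 had 16.3, 11.8 and 8.85 FPKM at 0 h, 4.80, 9.60 and 5.14 FPKM at 2 h, and 1.58, 3.91 and 9.07 FPKM at 4 h. It had 0.806, 1.63 and 1.51 FPKM at 12 h, 1.51, 3.47 and 0.209 FPKM at 24 h, and 4.65, 6.01 and 6.40 FPKM after recovery. At 12 and 24 h and after recovery all libraries lay below 0 h, whereas 2 h and 4 h overlapped with it. The log2FC was -2.50 at 12 h (limma, adjusted p = 0.000647) and -2.44 ± 0.466 at 24 h (SE; adjusted p = 0.000344). The call at 4 h (log2FC -1.36, adjusted p = 0.0405) was lost in 10 of the alternatives, among them median-ratio scaling (-0.93, adjusted p = 0.171). After recovery the log2FC was 1.48 against 24 h (adjusted p = 0.0159), which was 0.99 and no longer called without replicate 3 of 24 h (adjusted p = 0.0969), and -0.96 against 0 h (adjusted p = 0.112). With median-ratio scaling the log2FC of recovery against 0 h was -0.36 (limma, adjusted p = 0.574). Unlike after re-watering, no library of heat recovery was above those of its 0 h group in the deposited FPKM. This difference between the series was not tested because the tables were normalised separately.

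GA2ox5 had 0, 0.0859 and 0.0997 FPKM at 0 h and stayed at or below 0.517 FPKM in the libraries of 2, 4 and 12 h. At 24 h it had 7.60, 4.19 and 26.5 FPKM, and after recovery 0.0495, 0.0406 and 0.0370 FPKM. The 24 h libraries were thus the only ones above 1 FPKM in either series, and their spread was wide, with replicate 3 the highest. As a description, the log2FC was 3.34 ± 0.387 (SE) at 24 h against 0 h and -3.36 for recovery against 24 h. With both replicates 3 of the 12 h and 24 h groups left out, the value at 24 h was 2.65, and with a pseudocount of 0.1 it was 5.95. The neighbouring GA2ox4, too low at 0 h to be called lower, had 0.522, 0.0866 and 0.575 FPKM at 24 h against 0.701, 1.18 and 0.622 FPKM at 0 h (log2FC -0.40, 95% interval -0.91 to 0.10; limma, adjusted p = 0.159). After recovery GA2ox4 had 0.0867, 0.319 and 0 FPKM, below 0 h (log2FC -0.69, adjusted p = 0.0315), where the minimum fold change was again out of reach.

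GA2ox7, so deeply lowered in drought, was more scattered in heat. Its starting level was also lower there, with a mean of 5.53 FPKM at 0 h against 50.5 FPKM at 0 days of drought, in tables normalised separately. It had 9.96, 5.25 and 1.38 FPKM at 0 h, 5.41, 3.40 and 2.52 FPKM at 2 h, and 0.495, 1.87 and 3.30 FPKM at 4 h. At 12 h it had 3.01, 3.70 and 2.66 FPKM, and at 24 h 5.96, 9.58 and 3.95 FPKM. All 4 groups overlapped with 0 h, and the log2FC was 0.39 at 24 h (95% interval -0.60 to 1.37; limma, adjusted p = 0.490). After recovery GA2ox7 had 0.725, 0.475 and 0.680 FPKM, below all libraries of 0 h (log2FC -1.75, adjusted p = 0.00806) and of 24 h (log2FC -2.14, adjusted p = 0.00144). With median-ratio scaling the log2FC of recovery against 0 h was -1.33 (limma, adjusted p = 0.0250). In both series its level was thus below that of its own starting group 1 day after the stress ended.

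GA2ox2 had 0.572, 1.25 and 1.25 FPKM at 0 h, 3.48, 2.53 and 1.52 FPKM at 2 h, and 1.63, 0.504 and 1.15 FPKM at 4 h. At 12 h it had 4.09, 3.05 and 1.64 FPKM, and at 24 h 0.236, 0.332 and 0.901 FPKM. The libraries of 2 h and 12 h were above those of 0 h and those of 4 h and 24 h overlapped with them. The log2FC was 0.78 at 2 h (limma, adjusted p = 0.128) and 0.92 at 12 h (adjusted p = 0.0243, short of the minimum fold change), and after recovery it was 0.01 (adjusted p = 0.995). Against 24 h, recovery had 2 of the 5 genes left without GA2ox5 higher (16% of all genes), GA20ox1 and PROCERA, and 1 lower (16.4%), GA2ox7, with a median log2FC of 0.45, where that of all genes was 0.00. GA2ox2 and GA2ox4 were too low at 24 h to be called lower.

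The 4 genes not tested in heat stayed near the lower limit. GA20ox2 was between 0 and 0.616 FPKM, GA3ox1 between 0 and 0.490 FPKM and GA3ox2 between 0 and 1.10 FPKM. GA20ox2 and GA3ox1 were listed at 0 in all 3 libraries of recovery. GA20ox3 was listed at 0 in all libraries of 0 h and 4 h and had 0.0563, 0.394 and 0.265 FPKM at 24 h and 0.0554, 1.61 and 0.205 FPKM after recovery. As in drought, GA20ox3 was thus above 0 only after stress had begun, but with a single library over 1 FPKM.

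Over the 7 group means of the drought series, on the log2(FPKM + 1) scale, GA20ox1 and GA3ox2 ran most closely together (Pearson's r = 0.989), and so did GA2ox2 and PROCERA (r = 0.967). GA20ox3 ran against PROCERA (r = -0.934), and GA2ox7 was only loosely related to it (r = 0.445). In the 6 group means of the heat series the r of GA20ox1 and PROCERA was 0.936, against 0.812 in drought. These are descriptions over a few groups that share their libraries and their time course. In drought GA3ox2 passed the filter only through re-watering, where GA20ox1 was also highest, and GA20ox3 only through libraries of the drought days. How far those groups set the r values was not tested.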

How the data were processed

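Per the labels and the study's methods, total RNA from leaves was sequenced as stranded libraries, reads were trimmed with Trimmomatic and aligned with TopHat to the tomato genome (annotation ITAG4.0), with 1 place kept per read, and FPKM were computed with Cuffdiff. The authors deposited 1 FPKM table per series, with 1 column per library. The columns of 0 days of drought carry numbers that are not tied to single samples, and the study's methods give a lower plant age than the labels. The deposited tables hold no counts, so depth is known only in relative terms, from the spacing of values below 0.5 FPKM.

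Genes that reached 1 FPKM in 3 or more libraries of a table were tested on log2(FPKM + 1) with limma 3.58.1 (empirical Bayes with a trend) in R 4.3.3, all groups of a table in 1 fit, with Benjamini-Hochberg adjustment within each comparison, and the script was tested on simulated data. The fold change and p thresholds are those of the study. Tables were normalised separately, so nothing was tested between them. The alternatives were another pseudocount, no filter, median-ratio scaling, only the groups compared, a replicate block, no minimum fold change, and libraries left out. The named genes were the 10 members, the 2 genes most like GA20ox1, GA2ox7 and PROCERA, and genes called from a list of 11 further IDs. Members and lists were chosen with earlier results of these data known. The antenna genes were taken from a list of the study.

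In the heat series no same-numbered pair of libraries deviated together (0 of 18 pairs of libraries with a correlation over 0.1), so the replicate numbers were not taken as pairs. For re-watering with 5 days of drought 1 of 3 pairs was over 0.1, at 0.19.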

Additional observations from a re-analysis of the deposited data

How the results depend on the processing

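No called change turned its direction under the alternatives run. Of 1576 values over the 61 pairs of a member and a comparison that were called in at least 1 setting, 1520 stayed on the same side of the threshold, 25 lost the call and 31 gained it. The counts in this paragraph are over all tested members, those that passed the filter through a single group included. At 2 h of heat, where no gene was called, PROCERA was called with only the groups compared in the fit (count 1) and with replicate 3 of 12 h and of 24 h left out (1), and the count was 0 to 1 when single libraries were left out. At 4 h of heat the count of 2 became 1 with a pseudocount of 0.1, with no filter, with median-ratio scaling and with only the groups compared, and it was 1 to 3 when single libraries were left out, with GA20ox1 the gene that was lost. At 1 day of drought the count of 4 was 2 to 5 when single libraries were left out, and 2 without replicate 3 of 0 days, where GA2ox2 and GA2ox7 were lost. Counts of the other comparisons stayed within 1.5 times. With the replicate number as a block the counts were 0, 2, 2, 3 and 2 at 2, 4, 12 and 24 h of heat and after recovery, 4 for heat recovery against 24 h and 5 for re-watering against 5 days of drought, as without it. In drought no paired analysis was possible against 0 days because those columns carry no tied number. The correlations of same-numbered deviations ran from -0.13 to 0.19 for re-watering with 5 days of drought and from -0.13 to 0.09 in heat. A pseudocount of 0.1 made changes of low genes larger, as for GA20ox1 at 5 days of drought (-3.59 against -2.12), and it called GA2ox4 in heat recovery, GA3ox2 at 3 to 5 days, and GA20ox3 at 1 and 3 days and after re-watering. The shallow replicate 2 of 3 days of drought limits that group. The smallest value above 0 that a gene could show in it was estimated only as an upper bound. This used the gene's lowest value above 0 in the series and the relative depth. It was 1.15 FPKM for GA2ox2 and 0.457 FPKM for GA3ox2, which were both listed at 0 there.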

Other observations

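A list of 11 further gene IDs had been drawn up as candidates for other steps of GA synthesis and perception. Neither the tables nor the reference used here pairs them with names, so they are given by ID, with no role. The tables held 10 of them, of which 7 were tested in drought and 6 in heat. At 1 to 5 days of drought 3, 3, 3, 4 and 2 of them were higher than at 0 days and none was lower by limma (4, 4, 4, 5 and 3 had an unadjusted p under 0.05), against 6.79%, 11%, 12.9%, 14.6% and 13.5% higher and 8.27%, 12.9%, 14.8%, 15.2% and 17.7% lower among all genes, and after re-watering none was called (3 with an unadjusted p under 0.05; 5.25% of all genes were higher and 6.41% lower). Against 5 days of drought, re-watering had none higher (17.4% of all genes) and 3 lower (12.6%). At 2, 4, 12 and 24 h of heat and after recovery 0, 0, 1, 1 and 0 of the 6 were higher, against 2.07%, 2.47%, 8.42%, 9.31% and 1.23% of all genes. At the same points 0, 2, 1, 2 and 0 were lower, against 3.49%, 13%, 15.7%, 33.1% and 23.3% of all genes, and 3, 3, 5, 5 and 1 had an unadjusted p under 0.05.

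The strongest of these in drought was Solyc09g074270, with 86.6, 104 and 98.0 FPKM at 4 days against 9.98, 10.7 and 7.00 FPKM at 0 days (log2FC 3.26, limma adjusted p = 1.15e-08). Solyc06g008870 had 94.4, 122 and 100.3 FPKM at 4 days against 15.0, 17.96 and 16.8 FPKM at 0 days (log2FC 2.59, adjusted p = 5.53e-08). In neither gene did the groups overlap. At 24 h of heat Solyc09g074270 had 49.6, 77.2 and 94.6 FPKM against 6.41, 9.38 and 8.13 FPKM at 0 h (log2FC 3.02, adjusted p = 4.67e-06). Solyc04g078390 had 29.4, 34.0 and 8.83 FPKM at 24 h of heat against 100.2, 105 and 127 FPKM at 0 h (log2FC -2.35, adjusted p = 0.000123), and Solyc12g006460 had 14.0, 21.3 and 1.77 FPKM against 73.4, 55.2 and 39.6 FPKM (log2FC -2.51, adjusted p = 0.00328). In both of these replicate 3 of 24 h was the lowest, as it was for PROCERA.

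Over the 11 group values of both series, each centred on its own 0 days or 0 h, the genes most like PROCERA among 18423 were Solyc12g088650.2 (Pearson's r = 0.991) and Solyc02g091840.3 (r = 0.989). Those most like GA20ox1 were Solyc01g094720.3 (r = 0.972) and Solyc03g064010.4 (r = 0.969), and those most like GA2ox7 were Solyc11g021020.1 (r = 0.967) and Solyc07g007110.4 (r = 0.963). These values share their libraries and time courses, and they were the highest of many.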
